A study of Mus musculus with 8 samples.

Results

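The genes described here belong to families of interferon-induced antiviral effectors: Ifit1, Ifit2, Ifit3 and Ifit3b of the IFIT family, the Mx genes Mx1 and Mx2, Rsad2 (viperin) and Cmpk2. They were chosen by name, with earlier results of these data known, as 8 of the 55359 gene identifiers in the count table. All 8 passed the filter on low counts that left 15164 genes for testing. The cells were MLO-Y4, a mouse osteocyte-like line that is a single immortalised line from a transgenic mouse, labelled as wild type and grown on collagen-coated dishes in serum-containing medium. One group of 4 libraries came from non-irradiated cells and the other group of 4 from cells given a single exposure of 1 min to a pulsed Er:YAG laser, an infrared dental laser emitting at 2940 nm, at a fluence of 6.0 J/cm2 and from a distance of 25 cm to the bottom of a 35-mm dish. Cells had been seeded 72 h before irradiation, the medium was taken off for the exposure, and RNA was extracted 6 h afterwards from both groups. The labels do not say whether the non-irradiated dishes also lost their medium for that time, nor whether the 4 libraries of a group came from separate cultures, so p-values measure the spread between these libraries, which may be technical. Libraries are named after the deposited columns, C5, C6, C7 and C8 without laser and, shortened here from L_6J5, L_6J6, L_6J7 and L_6J8, L5, L6, L7 and L8 with it, and levels are CPM, counts scaled to a common library total.

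Type I interferons bind a receptor whose kinases, JAK1 and TYK2, activate transcription factors of the STAT family; STAT2 acts with IRF9 in a complex that binds the interferon-stimulated response element (ISRE) in the promoters of responsive genes. IFIT proteins are built of tetratricopeptide repeats and bind foreign RNA: IFIT1 recognises viral RNA caps that lack methylation, IFIT2 is its relative, and IFIT3 is known in human cells as a partner that stabilises IFIT1. Mx proteins are dynamin-like GTPases that trap viral components. Viperin, the product of Rsad2, is a radical SAM enzyme that turns CTP into a chain-terminating nucleotide, and Cmpk2, its neighbour in the genome, encodes a mitochondrial kinase that phosphorylates nucleoside monophosphates. RefSeq lists Mx1 and Mx2 as transcribed pseudogenes in the C57BL/6J reference, so their transcripts are read here as RNA levels only.

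The promoters of the members are given as background, because ISRE-like letters are what the interferon complex reads. RefSeq promoter windows (GRCm38.p6) run from 250 bases before to 50 bases after a gene's start, and 6 of the 8 members had one; Mx1 and Mx2 had none. The 10-letter motif TTTCNNTTTC was searched on both strands (GAAANNGAAA on the other), and it was present in 4 of the 6 members with a window, Ifit1, Ifit3, Ifit3b and Rsad2, and in none of the windows of Cmpk2 and Ifit2. Over all 27025 genes with a window 3.99% had a match. Capitals mark the matches, written 5′ to 3′ on the strand of the gene. A match describes letters and is not a measured binding site. A window without a match does not show that a gene lacks an ISRE. Variant letters and bases outside the windows were not searched. Whether the motif bears on the changes was not tested, and the windows of Ifit2 are not printed.
The windows are Ifit1 (chr19:34640639-34640938, plus strand), Ifit3 (chr19:34583279-34583578, plus strand), Ifit3b (chr19:34607707-34608006, plus strand), Rsad2 (chr12:26456403-26456702, minus strand) and Cmpk2 (chr12:26468965-26469264, plus strand).
Ifit1: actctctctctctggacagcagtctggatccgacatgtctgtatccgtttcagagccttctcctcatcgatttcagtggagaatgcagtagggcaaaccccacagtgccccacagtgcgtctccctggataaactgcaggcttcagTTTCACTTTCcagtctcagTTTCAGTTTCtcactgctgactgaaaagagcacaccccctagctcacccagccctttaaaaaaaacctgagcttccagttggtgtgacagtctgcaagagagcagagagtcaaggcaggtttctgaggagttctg
Ifit3: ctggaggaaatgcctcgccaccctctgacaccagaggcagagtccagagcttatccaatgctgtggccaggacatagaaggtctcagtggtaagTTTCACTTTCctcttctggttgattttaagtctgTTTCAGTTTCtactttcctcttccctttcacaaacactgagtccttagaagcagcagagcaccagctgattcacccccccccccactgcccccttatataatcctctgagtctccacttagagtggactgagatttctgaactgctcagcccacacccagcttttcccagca
Ifit3b: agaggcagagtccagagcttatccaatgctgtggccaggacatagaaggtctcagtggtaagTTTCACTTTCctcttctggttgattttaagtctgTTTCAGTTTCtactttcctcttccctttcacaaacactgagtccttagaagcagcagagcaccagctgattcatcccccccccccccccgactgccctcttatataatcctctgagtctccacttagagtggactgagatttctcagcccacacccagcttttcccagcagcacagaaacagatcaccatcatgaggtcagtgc
Rsad2: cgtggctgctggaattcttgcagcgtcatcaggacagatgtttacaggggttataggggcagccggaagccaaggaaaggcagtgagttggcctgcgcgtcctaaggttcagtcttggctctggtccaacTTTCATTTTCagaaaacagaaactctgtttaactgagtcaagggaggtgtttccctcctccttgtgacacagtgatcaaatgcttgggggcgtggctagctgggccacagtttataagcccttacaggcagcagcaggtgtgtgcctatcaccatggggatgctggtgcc
Cmpk2: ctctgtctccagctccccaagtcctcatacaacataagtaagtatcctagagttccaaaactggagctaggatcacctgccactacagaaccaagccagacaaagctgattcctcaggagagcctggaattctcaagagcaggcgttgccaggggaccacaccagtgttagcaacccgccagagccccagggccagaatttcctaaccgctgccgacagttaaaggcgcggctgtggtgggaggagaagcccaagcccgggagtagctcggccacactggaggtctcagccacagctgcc
The first match began 156 bases before the start in Ifit3 and 188 bases before it in Ifit3b, with the second at 122 and 154 bases, in stretches of nearly the same sequence. In Ifit1 the matches began 104 and 85 bases before the start, and in Rsad2 the single match began 120 bases before it.

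All 8 members were lower in irradiated cells, at an adjusted p under 0.05 by edgeR's quasi-likelihood test with adjustment over all 15164 genes by the Benjamini-Hochberg method. The sizes fell into a wide range, from 45.9% lower for Mx1 and 41.7% and 41.5% lower for Ifit3b and Ifit3 to 11.7% lower for Rsad2. Of all tested genes 6.75% were called lower (1023 genes) and 8.22% higher (1247 genes); with library totals alone as the scale these were 1345 and 1050. The median log2 fold change of the 8 was -0.39, beside -0.0065 over all tested genes. In 7 of the 8 every irradiated library lay below every non-irradiated one, a pattern that 8.78% of tested genes had. Rsad2 was the exception. The 8 were chosen with earlier results of these data known, so these comparisons with all tested genes are a description. Summed over the 8 genes, the level was between 1431 and 1528 CPM in non-irradiated libraries and between 1055 and 1167 CPM in irradiated ones. In bulk RNA fewer expressing cells and less RNA per cell cannot be told apart.

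**Figure D1:**
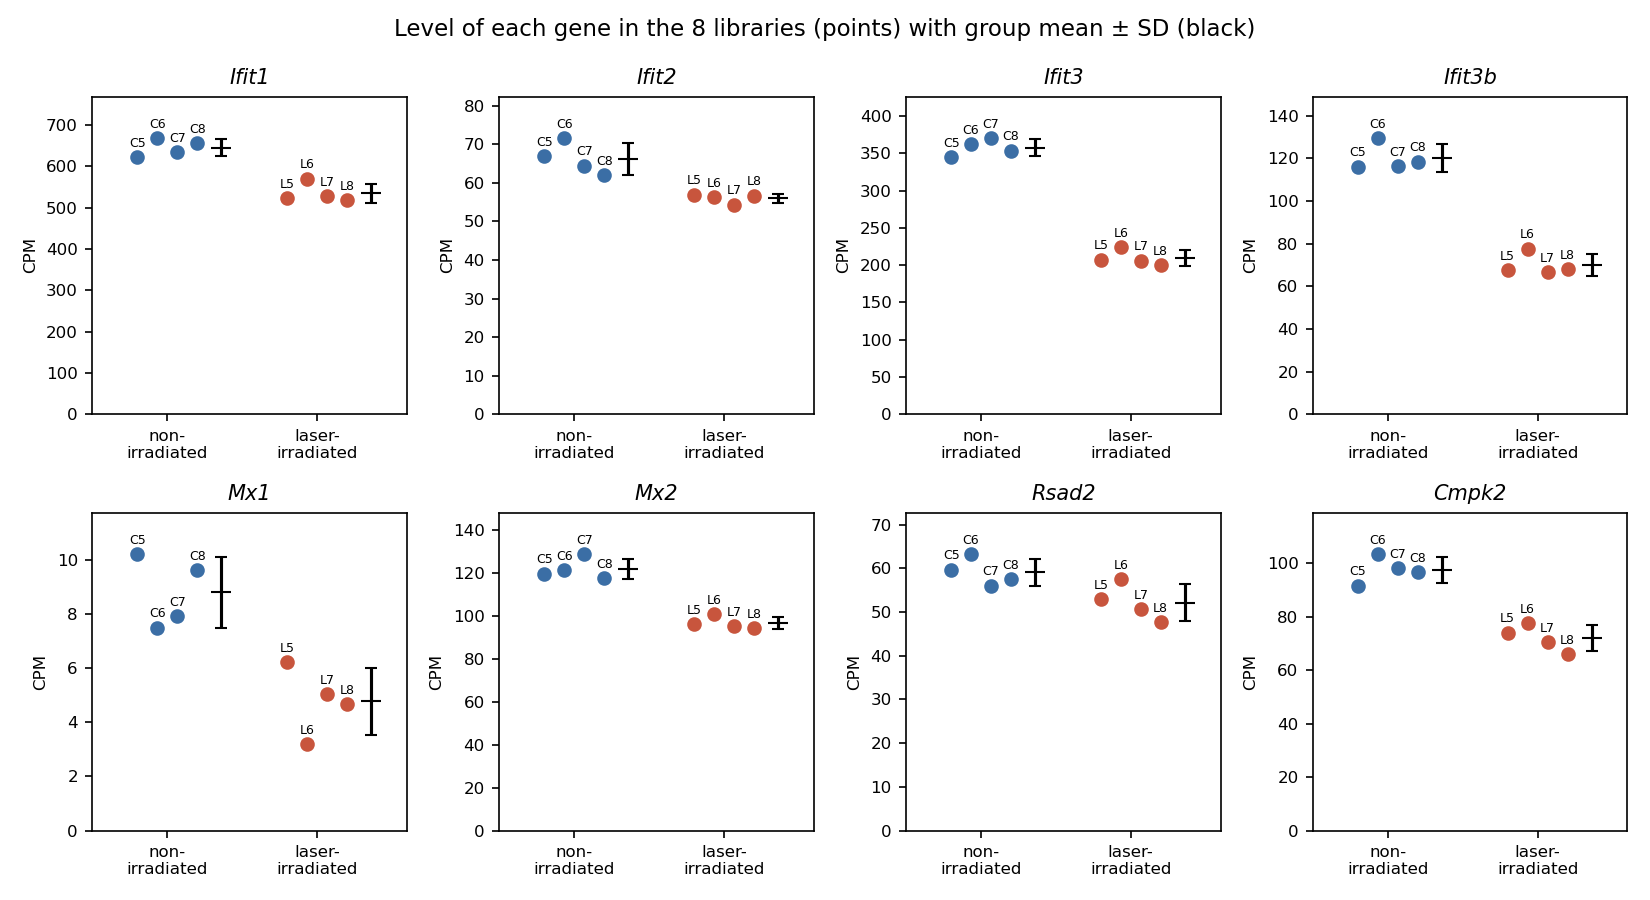
Level of each of the 8 genes in CPM (vertical axis, from 0) in the 4 non-irradiated (blue) and 4 laser-irradiated (red) libraries, with the group mean ± SD in black. Ifit3 and Ifit3b show wide gaps between the groups, and Rsad2 is the gene whose groups overlap.

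The libraries held 43786209 to 51734166 counts. Of the osteocyte and osteoblast markers Pdpn, Gja1, Phex, Alpl, Runx2, Col1a1 and Col1a2 were expressed, while Sost, Mepe and Fgf23 were at 0 in all libraries and Dmp1 had 82 counts in total. Of the 7 expressed ones 5 rose (Pdpn, Gja1, Alpl, Runx2 and Col1a2, by log2 fold changes of 0.24 to 0.35) and none fell. Over all tested genes 8.22% were called higher and 6.75% lower. The osteocyte and osteoblast list summed to 1907 to 2043 CPM in C5 to C8 and to 2168 to 2269 CPM in L5 to L8, with no overlap. Of 10 macrophage and leukocyte markers Ptprc, Adgre1, Itgam and Tyrobp were at 0 in all libraries. The list's summed level ran from 30.8 to 35.5 CPM in C5 to C8 and from 48.3 to 51.0 CPM in L5 to L8. Of its 3 tested genes Csf1r and Cd14 rose. Cd68 was lower in every irradiated library than in every non-irradiated one but did not pass (log2 fold change -0.34, edgeR adjusted p = 0.193). Endothelial and epithelial lists summed to at most 0.617 CPM in any library. For the plasmacytoid dendritic cell list Siglech was at 0, and nearly all of the 375.3 to 442.5 CPM came from Bst2, itself interferon-induced. The part of these markers in the changes of the 8 genes was not tested.

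Among the IFIT genes, Ifit3 (ENSMUSG00000074896.4) and its near-copy Ifit3b (ENSMUSG00000062488.10) showed the clearest drop. Ifit3 stood at 344.5, 362.5, 370.6 and 353.4 CPM in C5 to C8 and at 207.6, 224.0, 205.9 and 199.9 CPM in L5 to L8. No irradiated library came within 120 CPM of the lowest non-irradiated one. The group means were 357.8 ± 11.3 and 209.3 ± 10.3 CPM (SD, n = 4 each), a log2 fold change of -0.77 (SE 0.037, edgeR adjusted p = 4.43e-11). By p-value this was the gene ranked 4 among all 15164, while 64 other lowered genes had a larger fall.

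Ifit3b was measured at 116.0, 129.5, 116.4 and 118.4 CPM in C5 to C8 and at 67.6, 77.6, 66.6 and 68.0 CPM in L5 to L8. The groups stood apart here too, with L6 the highest irradiated library. Its log2 fold change was -0.78 (SE 0.052, edgeR adjusted p = 3.41e-09), with means of 120.1 ± 6.39 and 69.9 ± 5.13 CPM. The 2 genes share sequence: 41.1% of the 75-base windows of the longest Ifit3 transcript occur in Ifit3b (18.5% of 150-base windows), so counting could move reads between them. With the counts of both summed into 1 feature, the means were 477.8 ± 14.4 CPM without and 279.3 ± 15.2 CPM with irradiation, a log2 fold change of -0.77 (SE 0.037, edgeR adjusted p = 4.30e-11). Ifit3b took between 23.9% and 26.3% of the pair's counts in non-irradiated libraries and between 24.4% and 25.7% in irradiated ones.

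Ifit1 (ENSMUSG00000034459.9), the cap-binding member and the most abundant gene of the set, fell by less. Its level was 622.9, 669.1, 634.1 and 656.7 CPM in C5 to C8 and 523.6, 570.1, 527.7 and 518.1 CPM in L5 to L8. Every irradiated library was below the lowest non-irradiated one, C5. The log2 fold change was -0.27 (SE 0.033, edgeR adjusted p = 9.28e-06), that is 17.2% lower. Ifit1 has relatives in the same cluster, Ifit1bl1 and Ifit1bl2, of which Ifit1bl2 shares 5.19% of the 75-base windows of Ifit1. Ifit1bl2 was at 4.66 ± 0.597 and 3.12 ± 0.516 CPM (SD, n = 4 each; log2 fold change -0.58, edgeR adjusted p = 0.03), a call that ended when C7, C8, L5, L7 or L8 was left out (largest adjusted p 0.107, with C7 out) and with the column number as a replicate block (0.0526). Ifit1bl1, at 1.44 ± 0.423 and 1.07 ± 0.407 CPM, did not pass (adjusted p = 0.458). Summing all 3 genes gave a log2 fold change of -0.27 (edgeR adjusted p = 8.71e-06).

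Ifit2 (ENSMUSG00000045932.13) was at 66.9, 71.7, 64.5 and 62.0 CPM in C5 to C8 and at 56.9, 56.2, 54.4 and 56.7 CPM in L5 to L8. The irradiated libraries lay close together and all below C8, the lowest non-irradiated library. The log2 fold change was -0.24 (SE 0.051, edgeR adjusted p = 0.00235), 15.4% lower. None of the 75-base windows of Ifit2, Rsad2 or Cmpk2 occurred in another gene's transcripts.

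The Mx genes were expressed at very different levels, and both fell. Mx1 (ENSMUSG00000000386.17) was low, at 10.2, 7.49, 7.92 and 9.61 CPM in C5 to C8 and 6.21, 3.18, 5.03 and 4.66 CPM in L5 to L8. All irradiated libraries lay under all non-irradiated ones, with L6 the lowest and C5 the highest. These levels rest on 164 to 483 counts per library, and the spread was wider than for the other members, with coefficients of variation of 14.8% (non-irradiated) and 26.2% (irradiated). The log2 fold change was -0.89 (SE 0.173, edgeR adjusted p = 0.00136).

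Mx2 (ENSMUSG00000023341.16) was at 119.8, 121.4, 128.8 and 117.7 CPM in C5 to C8 and at 96.1, 100.8, 95.3 and 94.2 CPM in L5 to L8. The groups were separated by 16.9 CPM. Its log2 fold change of -0.34 (SE 0.040, edgeR adjusted p = 6.66e-06) corresponds to a level 20.8% lower. Only 3.04% of the 75-base windows of Mx2 occur in Mx1, and none of its 150-base windows.

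Cmpk2 (ENSMUSG00000020638.9), the nucleotide kinase gene, was at 91.5, 103.3, 98.0 and 96.5 CPM in C5 to C8 and at 73.9, 77.5, 70.3 and 66.0 CPM in L5 to L8. Every irradiated library was below C5, the lowest of the other group. The level was 26.1% lower (log2 fold change -0.44, SE 0.051, edgeR adjusted p = 5.81e-06).

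Rsad2 (ENSMUSG00000020641.17), the viperin gene next to it, had the smallest change and the only overlapping groups. It was measured at 59.7, 63.2, 56.1 and 57.5 CPM in C5 to C8 and at 52.9, 57.6, 50.6 and 47.6 CPM in L5 to L8. L6 was above both C7 and C8. The log2 fold change was -0.18 (SE 0.059, edgeR adjusted p = 0.0455), and the call did not hold without C5, C6, C7, C8, L5, L7 or L8 (adjusted p between 0.0512 and 0.151) or with limma-voom (adjusted p = 0.0656).

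**Figure D2:**
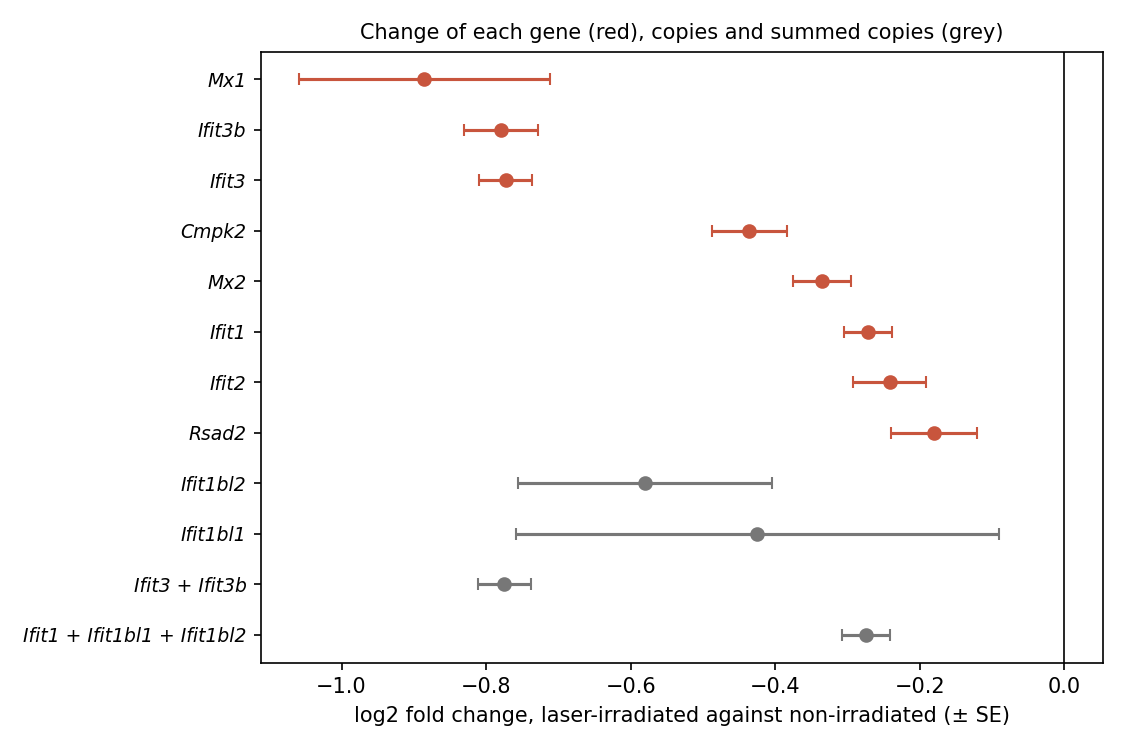
Log2 fold change of irradiated against non-irradiated cells (horizontal axis, bars ± SE) for the 8 genes (red), for Ifit1bl2 and Ifit1bl1, and for summed copies (grey). Mx1, Ifit3b and Ifit3 lie between -0.89 and -0.77, the other 5 genes between -0.44 and -0.18.

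Whether related or neighbouring genes changed by the same factor was tested on the ratio of their counts within a library, which does not depend on library scaling. Over 5 such ratios an exact two-sided permutation test was used, with adjustment over the 5; with 4 libraries against 4 its smallest p is 0.0286. The log2 ratio of Ifit3 to Ifit3b averaged 1.58 ± 0.076 without and 1.58 ± 0.048 with irradiation (SD, over 4 libraries each). The difference was 0.0067 with a standard error of 0.045 (exact p = 0.914, adjusted p = 0.914). Since 41.1% of the 75-base windows of Ifit3 occur in Ifit3b, counting could hold this ratio steady. It therefore cannot show whether the 2 genes changed by the same factor. Ifit1 against Ifit3 gave log2 ratios of 0.85, 0.88, 0.77 and 0.89 in C5 to C8 and 1.33, 1.35, 1.36 and 1.37 in L5 to L8. All irradiated libraries were higher, by 0.50 on average (exact p = 0.0286, adjusted p = 0.0476), so Ifit3 fell by more than Ifit1 within the same libraries. Ifit2 against Ifit3 moved the same way, by 0.53 (exact p = 0.0286, adjusted p = 0.0476), also with no overlap. Both ratios share Ifit3, and their adjusted values pass only because Rsad2 against Cmpk2, given next, reached the smallest p too.

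Rsad2 against Cmpk2 had log2 ratios of -0.61, -0.71, -0.80 and -0.75 in C5 to C8 and -0.48, -0.43, -0.47 and -0.47 in L5 to L8. The ratio was higher in every irradiated library, by 0.25 on average (exact p = 0.0286, adjusted p = 0.0476), so in these libraries Rsad2 fell by less than Cmpk2. This exact p is the smallest the test can give. The adjusted value passes only because Ifit1/Ifit3 and Ifit2/Ifit3, which share Ifit3, reached that p too. Mx1 against Mx2 averaged -3.80 ± 0.253 and -4.37 ± 0.433, a difference of -0.57 that did not pass (exact p = 0.0857, adjusted p = 0.107), and the groups overlapped, with L5 above C6 and C7.

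**Figure D3:**
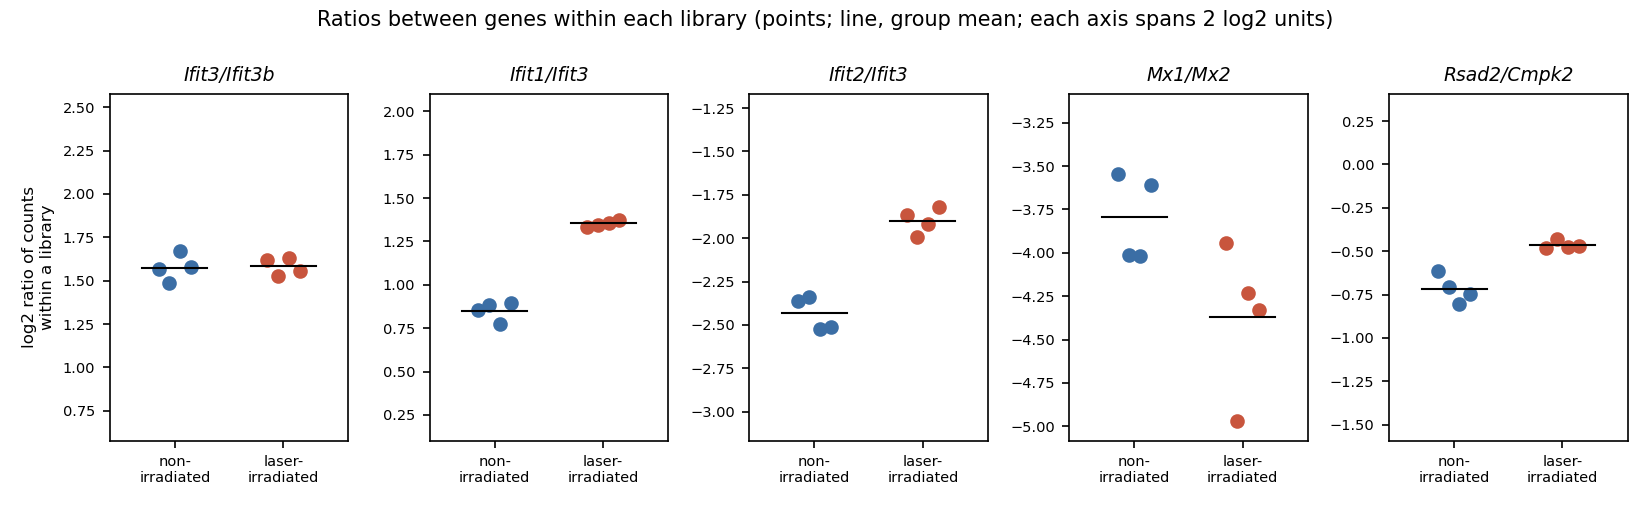
Log2 ratio of counts between pairs of genes within each library (vertical axis, each panel spanning 2 log2 units), in non-irradiated (blue) and irradiated (red) libraries, with lines at the group means. The groups overlap for Ifit3/Ifit3b and Mx1/Mx2 and are separate for the other 3 ratios.

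Per kilobase of annotated exon, the order of levels was the same in both groups. In non-irradiated cells Ifit1 led at 243.1 ± 7.9 CPM per kb, followed by Ifit3 at 205.0 ± 6.47, Ifit3b at 60.0 ± 3.19, Mx2 at 33.7 ± 1.34, Cmpk2 at 23.4 ± 1.17, Ifit2 at 16.9 ± 1.05, Rsad2 at 13.6 ± 0.721 and Mx1 at 2.33 ± 0.345 CPM per kb (SD, n = 4). In irradiated cells Ifit1 was at 201.4 ± 8.96 and Ifit3 at 120.0 ± 5.92 CPM per kb, and Mx1 at 1.26 ± 0.33. No 2 neighbours in the order had overlapping values in either group. The closest were Ifit2 and Rsad2, whose lowest and highest irradiated libraries were 13.8 and 13.3 CPM per kb. Of the summed CPM of the 8 genes, Ifit1 made up 43.7% without irradiation and 48.8% with it.

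Among the 10597 other genes that averaged 5 CPM or more, those whose profile over the 8 libraries was closest to the median profile of the members, by root-mean-square difference of log2 CPM, were Dusp10 (0.027), Igtp (0.035), Ifi35 (0.040), Gbp2b (0.043) and Tgtp2 (0.044). Dusp10 encodes a phosphatase of stress-activated kinases, Igtp and Tgtp2 encode immunity-related GTPases, Gbp2b a guanylate-binding protein, and Ifi35 an interferon-induced protein. Their log2 fold changes, from -0.41 to -0.34, follow from this choice and are given as a description. Of the members themselves Cmpk2 (0.048) and Mx2 (0.064) were nearest to the median profile, and Mx1 (0.48), Ifit3b (0.28) and Ifit3 (0.28) the farthest.

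Other genes of the interferon pathway were counted from lists of ligands, receptors, transcription factors, regulators, sensors and effectors. Of 71 tested genes outside the set 39 were lower, 4 higher and 28 did not pass the test. Over all tested genes 6.75% were called lower and 8.22% higher, but the lists were chosen with earlier results of these data known. Among STAT and IRF factors 6 of 8 fell and 1 rose (median log2 fold change -0.25): Stat2, part of the ISRE-binding complex, went from 360.1 ± 12.6 to 276.8 ± 4.89 CPM (edgeR adjusted p = 5.58e-08), Irf1 from 111.3 ± 3.85 to 84.3 ± 3.92 CPM (adjusted p = 1.75e-06) and Irf2 from 20.6 ± 1.09 to 15.5 ± 1.1 CPM (adjusted p = 0.0011), while Irf5 rose (log2 fold change 0.32, adjusted p = 0.00108). Of the 9 receptor and kinase genes 8 did not pass and Jak1 rose, from 305.5 ± 14.4 to 478.1 ± 12.3 CPM (log2 fold change 0.65, edgeR adjusted p = 2.24e-10). Its direction was thus opposite to that of the 8 genes.

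Of 8 feedback regulators, Usp18 and Isg15 fell (log2 fold changes -0.31 and -0.25), Socs3 and Ptpn11 rose (0.44 and 0.16) and 4 did not pass. Of 8 nucleic acid sensors 5 fell, among them Dhx58 (-0.48), Zbp1 (-0.43), Tlr3 (-0.26) and Ddx58 (-0.22). Of 9 OAS and RNase L genes 7 fell, with Oas1c (-0.69), Oas3 (-0.45), Oas1b (-0.35) and Oasl2 (-0.33) changing most. Of 26 other interferon-induced effectors 18 fell and 8 did not pass, with Cxcl10 (-0.66), Sp100 (-0.52), Parp14 (-0.43) and Herc6 (-0.42) falling most. The counts by list were the same with size factors of the DESeq2 type, and with library totals alone 1 more effector was lower. Of 10 interferon genes only Ifnb1 was tested, with means of 0.123 ± 0.109 CPM (non-irradiated) and 0.319 ± 0.155 CPM (irradiated) (log2 fold change 1.37, SE 0.765, edgeR adjusted p = 0.263). Of the other 9, 7 had 0 counts in all 8 libraries. A count of 0 still permits 0.0685 CPM, which is 3 counts in the library with the lowest total, or 0.274 CPM if a fragment adds 4 counts; these limits cover counting error only.

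**Figure D4:**
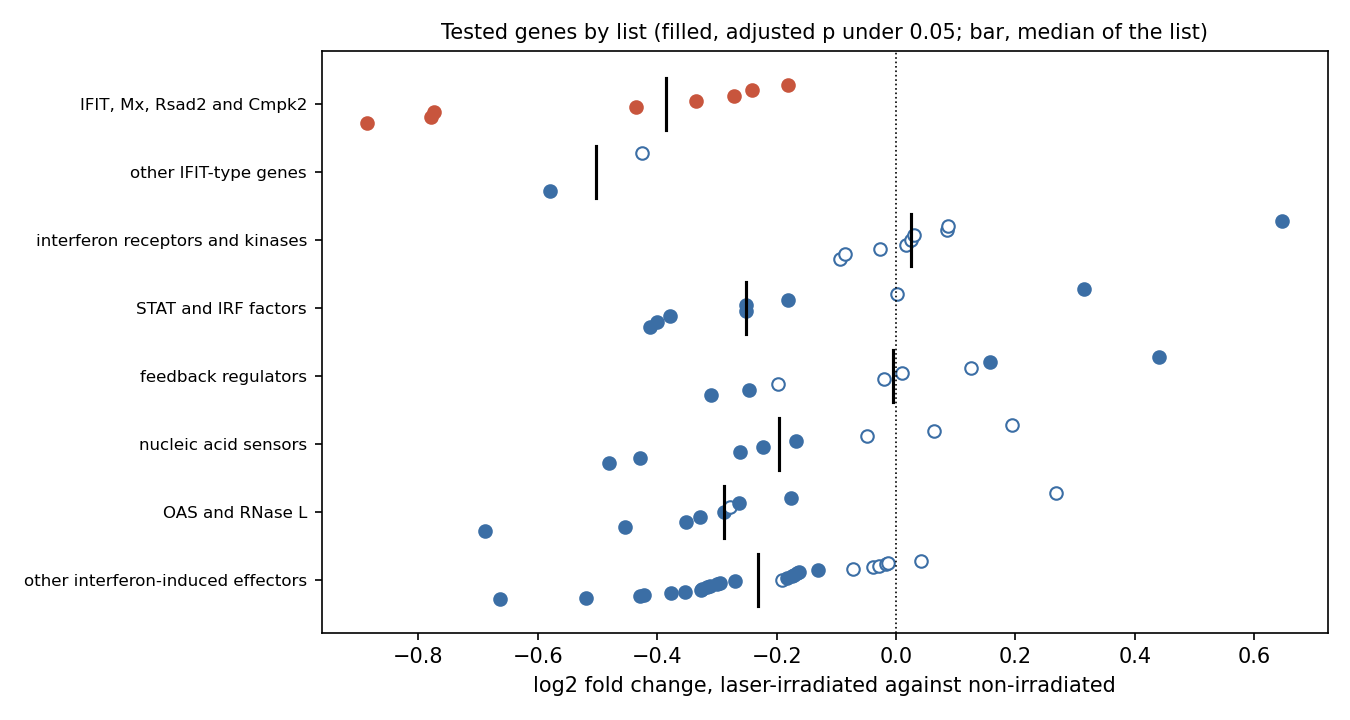
Log2 fold change (horizontal axis) of each tested gene, by list, for the 8 genes (red) and the other interferon pathway lists (blue); filled points passed an adjusted p of 0.05 and black bars are list medians. Ifnb1 is left out. The 8 genes and most effector, OAS and STAT/IRF genes lie below 0, with Jak1 the farthest point above 0.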

How the data were processed

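RNA-seq of poly(A)-enriched RNA gave a table of whole-number estimated counts per gene, which the authors deposited without normalization. Per the submitters' processing notes the tools were StringTie 2.1.7, HISAT2 2.2.1, DESeq2 1.32.0, Trimmomatic 0.39 and FastQC 0.11.9, with build GRCm39. For the annotation, strand setting and read length, values were not given in the sources used here. The value 4 occurs 6096 times, against 4006 for 3 and 2428 for 5, so a fragment may add several counts and counting error may exceed that of a Poisson count. Columns were tied to a group by the first letter of their names, C or L, as in the sample titles. Their numbers matched no title, so they could not be tied to a sample.

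Symbols came from GENCODE M21 for 52083 of 55359 identifiers; exon lengths and transcript windows are from the same release (GRCm38), promoters from RefSeq. Genes were kept by filterByExpr (minimum count 10), scaled by TMM and tested with edgeR 4.0.16 (glmQLFit, robust) on all 8 libraries in R 4.3.3, after a check on simulated data. The standard error is the log2 fold change divided by the square root of F. CPM uses TMM-scaled totals, ratios add 2 counts to each gene, and exact permutation used scipy 1.17.1. Alternatives used DESeq2 1.42.0 and limma 3.58.1.

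Named besides the 8 genes were, from each pathway list, up to 4 called genes with the largest change or, if none passed, those with the lowest p, and the 5 genes of the closest profile; Ifit1bl1 and the markers were named after their values were seen. The genes and lists were chosen with earlier results of these data known.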

Additional observations from a re-analysis of the deposited data

Results flagged for a closer look

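Among the irradiated libraries, L6 stood apart for Ifit3b: at 77.6 CPM it was above the other three, which lay between 66.6 and 68.0 CPM, and its gap to the nearest took 0.865 of the group's range (the 95% limit for 4 samples is 0.829). It was 1 of 30 groups of 4 values examined, and chance alone flags about 1 in 20 groups. Without L6 the log2 fold change of Ifit3b was -0.83 (edgeR adjusted p = 1.74e-09).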

How the results depend on the processing

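All 8 genes stayed lower under every one of the 17 alternatives to the count test, and 7 of them (all but Rsad2) stayed past the threshold in each; so did both sums of copies. Leaving out single libraries gave log2 fold changes of -0.75 to -0.80 for Ifit3, -0.74 to -0.83 for Ifit3b, -0.73 to -1.04 for Mx1, and -0.14 to -0.23 for Rsad2. Rsad2 lost its call with limma-voom (-0.18, adjusted p = 0.0656) and without C5, C6, C7, C8, L5, L7 or L8, and kept it with the column number as a replicate block (-0.18, adjusted p = 0.0344), where 751 genes were lower and 1006 higher. The block was not part of the design. Over all tested genes the deviations of same-numbered libraries correlated between -0.0459 and 0.00144, which showed no pairing by number. A shared culture or day is not excluded by these values. Apart from Ifit1bl2 (edgeR adjusted p = 0.0526) the block changed no call among the 8 genes and the 28 other genes named by rule. Over single libraries left out, genes lower ranged from 696 to 1172 and genes higher from 976 to 1501. Of 474 values for 28 other named genes 468 kept their call and 6 did not, all 6 for Ifit1bl2.

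The 3 ratios that passed could not pass with fewer libraries or in pairs, where the smallest exact p is 0.0571 (1 library out), 0.1 (both numbered 6 out) or 0.125 (sign flips within pairs). Leaving out 1 library gave differences of 0.48 to 0.52 for Ifit1/Ifit3, 0.50 to 0.57 for Ifit2/Ifit3, 0.23 to 0.29 for Rsad2/Cmpk2 and -0.024 to 0.038 for Ifit3/Ifit3b. Without both libraries numbered 6 they were 0.51, 0.60, 0.25 and -0.0059 in that order, and with the replicate block 0.50, 0.53 and 0.25 for the first 3 (adjusted exact p = 0.156). The sign of the Ifit3/Ifit3b difference, which did not pass in any setting, also turned without C6, L5 or L7. Dividing counts by 4 or adding 0.5 in place of 2 left the calls of all 5 ratios as they were. Depth limits Mx1 most, at 164 to 483 counts per library.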

Other observations

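As a description, the highest and lowest library of each group were counted over the 8 genes. L6 was the highest irradiated library for 6 of the 8 genes, and C6 the highest non-irradiated one for 5 of the 8. Mx1 did the opposite and was lowest in both C6 and L6, at 7.49 and 3.18 CPM. L8 was the lowest irradiated library for 5 of the 8. How often each library was highest or lowest over all tested genes was not counted, and Ifit3 and Ifit3b share sequence.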
